A study of Bos taurus with 3 samples.

Results

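The genes CCN1, CCN2, THBS1, CRIM1, AMOTL2, AJUBA, YAP1, WWTR1, TEAD1 and LATS2, all of the YAP and TEAD pathway, were followed through the epithelium of the bovine rumen. They are 10 of the 19533 genes named in the deposited cell table. The genes were chosen by name, after their levels in these cells had been seen, and the cell states they were compared across were set by the unique molecular identifiers (UMIs, each standing for 1 captured RNA molecule) of 4 other genes, DLK2, PDK4, KRT15 and GJA1. Not all of the 10 are targets of the pathway: YAP1 and WWTR1 (also called TAZ) are its co-activators, TEAD1 is the DNA-binding partner and LATS2 is a kinase that restrains them, while the other 6 are known as target genes. Among the 9 that could be tested, CCN1, CCN2 and THBS1 had the largest fold changes between DLK2+ PDK4+ and KRT15-high cells, whereas YAP1 and TEAD1 passed no test of a difference.

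YAP1 and WWTR1 carry signals of cell shape, attachment and crowding to the nucleus. The kinases of the Hippo pathway, among them LATS2, phosphorylate both proteins and hold them in the cytoplasm. Unphosphorylated, they enter the nucleus and switch on genes through TEAD factors, and CCN1 and CCN2 are the most widely used readouts of that step. In stratified epithelia the pathway is best known in the basal layer, where cells touch the basement membrane. Its activity is set by the place and phosphorylation of proteins, neither of which is measured by RNA.

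The cells came from the rumen of 3 adult Holstein dairy cows, lactating at the time per the study's methods, with 1 single-cell library per cow and no treatment. The muscle was stripped off, and the epithelium was freed with EDTA, trypsin and a mixture of collagenases, dispase, hyaluronidase and DNase before droplets were made. After the authors' filters 20728 epithelial cells remained, 3369 from cow 1, 7401 from cow 2 and 9958 from cow 3. Cow and library cannot be told apart, since each cow gave 1 library.

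The libraries held 38912809, 94856658 and 104189434 UMIs, with a median of 10342, 12051 and 9747 UMIs per cell. Their median mitochondrial share was 17.2%, 10.8% and 12.4%. The basal keratins KRT5 and KRT14 were detected in 99.9% and 99.5% of cells, and their levels over all states and cows ran from 31.7 to 81.6 and from 16.8 to 62.0 UMIs per 10000. Since no state lacked them, these shares could not be set against a background of free RNA. Of the 35 barcodes found in a pair of libraries, out of 20693 distinct ones, none occurred in all 3. Doublets were not called again here, because the study's methods describe their identification before deposit.

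Each cell was put into 1 of 7 states. Cells with at least 1 UMI of DLK2, a relative of the Notch ligands, were divided by PDK4, a kinase that turns cells from glucose towards fatty acids, into DLK2+ PDK4+ cells (3803) and DLK2+ PDK4- cells (3593). Cells with PDK4 and without DLK2 formed the PDK4+ only state (3683). Cells without DLK2, PDK4 and GJA1 were called KRT15-high (2051) where their share of the basal keratin KRT15 lay at or above the 75th percentile of their cow, and rest otherwise (5499). Cells with GJA1, which encodes a gap-junction connexin, formed the GJA1+ state (1661), and those that also had DLK2 formed the DLK2+ GJA1+ state (438). The cows contributed unevenly. DLK2+ PDK4+ cells numbered 660, 2591 and 552 in cows 1, 2 and 3, and the rest 584, 878 and 4037. The KRT15 cut stood at 60.1, 72.7 and 66.7 UMIs per 10000 in cows 1, 2 and 3, and the cells next to it on either side were close, at 60.137 and 60.106 in cow 1. The 4 genes that set the states are not results.

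Levels are given as UMIs of a gene per 10000 UMIs of all genes, summed over the cells of 1 state in 1 cow, so that each state has 3 values and the cow is the replicate. They are not per transcript length, and with a 3′ end assay 1 molecule counts alike in long and short genes. CCN1 was the most abundant of the 10, with 14344 UMIs in 28.8% of cells. CRIM1 had 9697 UMIs, THBS1 8684, AMOTL2 2009, CCN2 1819, AJUBA 1687 and YAP1 1570. The remaining genes were sparse: WWTR1 had 556 UMIs, TEAD1 550 and LATS2 91, so that small differences in these 3 were not detectable at this depth. LATS2 fell below the filter on low counts, and the other 9 were tested.

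**Figure D1:**
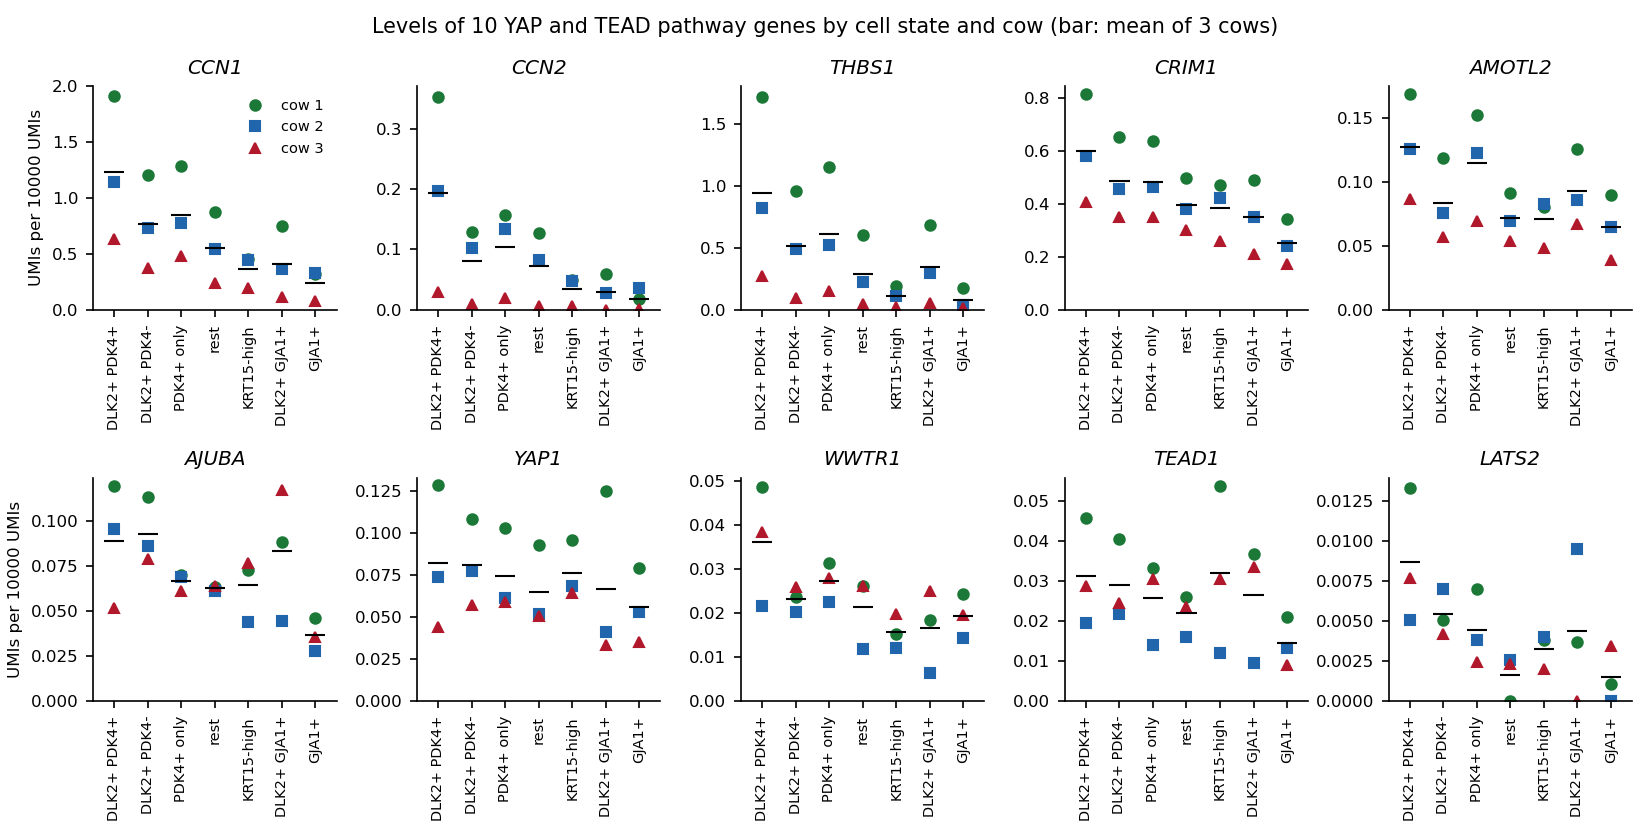
Levels of the 10 genes (y axis, UMIs of the gene per 10000 UMIs, starting at 0 with a scale of its own in each panel) in 7 cell states (x axis). Each symbol is 1 cow and each bar the mean of 3 cows. For CCN1, CCN2, THBS1, CRIM1 and AMOTL2 the DLK2+ PDK4+ value is the highest of the 7 states in all 3 cows, and YAP1 shows no such order.

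The comparisons between states, 6 in number, were fitted over all 10913 genes that passed the filter, with the cow as a block, by edgeR's quasi-likelihood test with Benjamini-Hochberg adjustment. Genes were called where the adjusted p fell below 0.05 and the fold passed 0.25 on the log2 scale in either direction. Against KRT15-high cells, DLK2+ PDK4+ cells had 6 of the 9 tested genes higher and 0 lower, where 12.4% of all genes were called higher and 14% lower. Within DLK2+ cells, those with PDK4 had 5 of 9 higher and 0 lower, against a background of 2.49% higher and 2.47% lower. PDK4+ only cells had 5 of 9 higher and 0 lower than the rest (background 5.92% higher and 6.68% lower). The same 5 genes, CCN1, CCN2, THBS1, CRIM1 and AMOTL2, were called in both of these PDK4 comparisons. The comparisons share no cells but come from the same 3 cows and libraries. DLK2 had 14407 UMIs in 7834 cells, so cells without a DLK2 UMI can include some that express it. The rest leaves out KRT15-high cells, whereas PDK4+ only, DLK2+ and GJA1+ cells were not cut by KRT15. Comparisons of these cells with the rest are not matched for KRT15.

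The mitochondrial share also differed between these states, which was not tested. Its median per cell was 10.7%, 9.66% and 10.8% in the DLK2+ PDK4+ cells of cows 1, 2 and 3, lower in each cow than the 20.6%, 11.7% and 13.3% of KRT15-high cells and the 14.8%, 10.7% and 11.7% of DLK2+ PDK4- cells. PDK4+ only cells, at 16.8%, 10.9% and 11.6%, lay below the rest (19.5%, 11.5% and 12.5%), and GJA1+ cells, at 22.6%, 13.8% and 14.3%, lay above it. With mitochondrial genes left out of the counts the same of the 9 genes were called in each of the 6 comparisons, and the part of differences in cell quality was not tested.

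Cells with DLK2 and without PDK4 had 3 of 9 genes higher than the rest and 0 lower, where 5.04% of all genes were called higher and 7.46% lower. KRT15-high cells had 0 higher and 1 lower than the rest (background 2.98% higher and 4.29% lower). GJA1+ cells had 0 higher and 5 lower, beside 17.3% higher and 16.3% lower over all genes. At an unadjusted p under 0.05, 1 of 9 was higher in KRT15-high cells (YAP1) and 3 were lower (THBS1, CCN1 and CCN2), among 2176 of all 10913 genes in either direction. In DLK2+ PDK4- cells against the rest 5 of 9 were higher, YAP1 among them, and 0 lower, among 2909 genes. In GJA1+ cells 0 of 9 were higher and 5 lower at that limit, among 4885 genes, and DESeq2 called 0 higher in GJA1+ and in KRT15-high cells. The median log2 fold change of the 9 genes was 0.67 in DLK2+ PDK4+ against KRT15-high cells, beside 0.006 over all genes tested, and it was -0.57 in GJA1+ cells against the rest, beside -0.021.

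These calls rest on comparing states within a cow. With the cow left out of the model 0 of the 9 genes were called by edgeR in any of the 6 comparisons, and 3 of them reached an unadjusted p under 0.05 in DLK2+ PDK4+ against KRT15-high cells. The share of all genes at that unadjusted limit was not counted for this model. In DLK2+ PDK4+ against KRT15-high cells the values of the states did not overlap between cows for CCN1, THBS1, AMOTL2 and WWTR1, and overlapped for the other 5 tested genes. In the other 5 comparisons they overlapped for all tested genes but AJUBA, which did not overlap in 2 of them. The share of all genes without overlap was not counted, so these overlaps have no background to be read against. CCN1, CCN2, THBS1, CRIM1, AMOTL2, YAP1 and TEAD1 were higher in cow 1 than in cow 3 in each of the 7 states. Because the 10 genes were picked with their levels known, the counts describe these cells and are not independent evidence for the pathway.

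**Figure D2:**
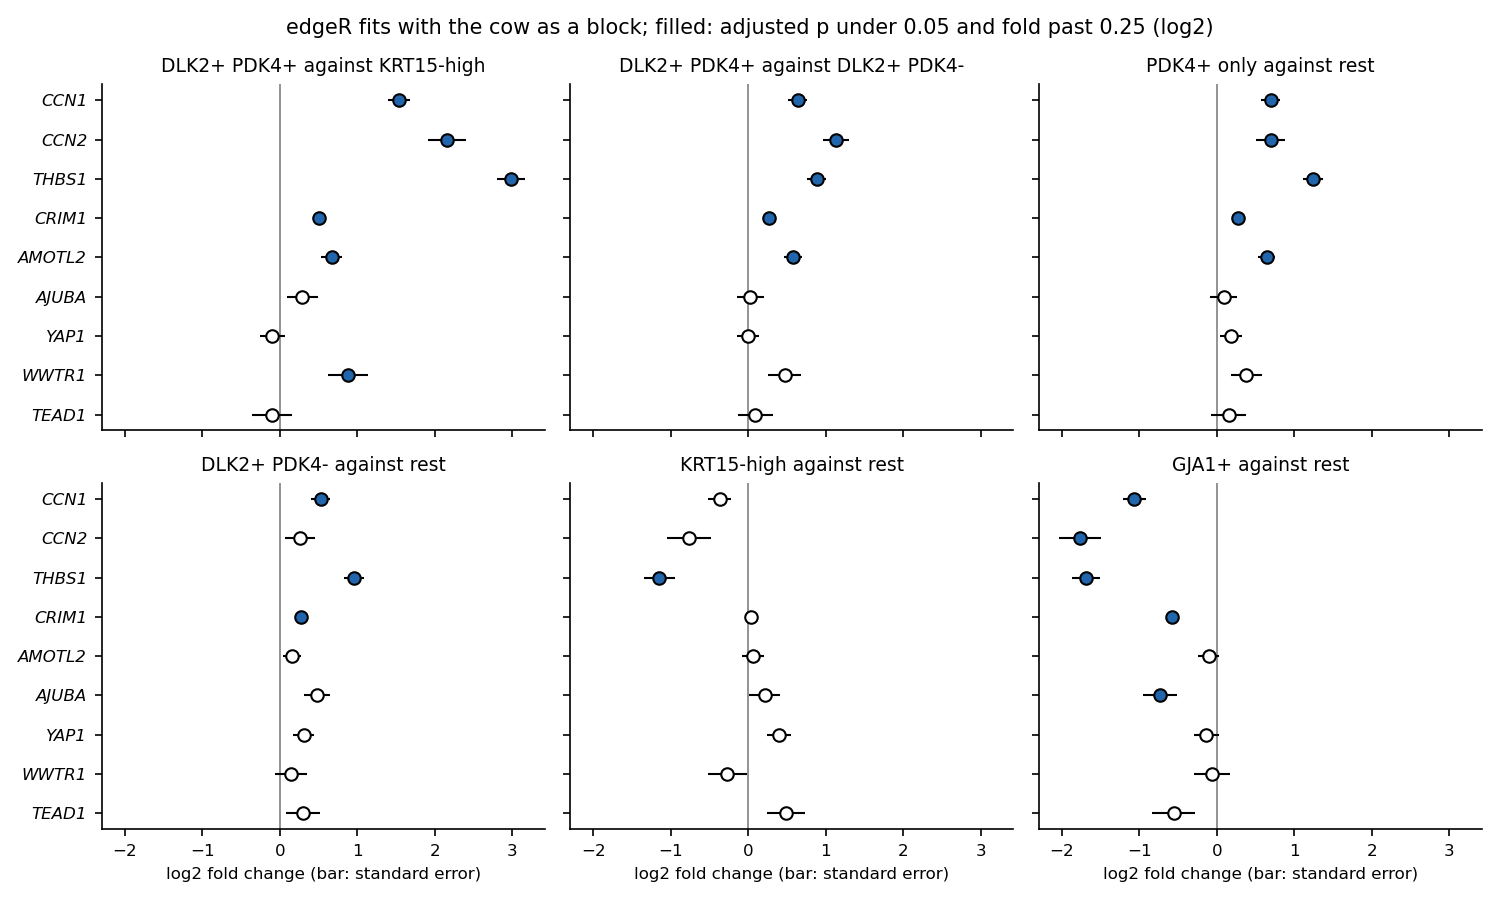
Log2 fold changes (x axis) of the 9 tested genes (y axis) in 6 comparisons of cell states, from edgeR with the cow as a block over 3 cows. Points are estimates, bars are standard errors, and filled points passed an adjusted p of 0.05 and a log2 fold change of 0.25. The target genes from CCN1 to AMOTL2 lie to the right of 0 in the 3 comparisons of the upper row, and YAP1 and TEAD1 are open in all 6 panels.

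CCN1 encodes a secreted matricellular protein that binds integrins and is a classical immediate target of YAP1. DLK2+ PDK4+ cells had a level of 1.91, 1.15 and 0.634 in cows 1, 2 and 3. In KRT15-high cells it was 0.456, 0.444 and 0.192, so that the lowest DLK2+ PDK4+ cow lay above the highest KRT15-high cow. The ratio of the states was 4.18, 2.58 and 3.30 within the 3 cows, and the fitted log2 fold change was 1.54 ± 0.14 (SE; edgeR, adjusted p = 1.73e-09). The order of the states differed between cows only in the places of DLK2+ GJA1+ and KRT15-high cells, and in each cow it began with DLK2+ PDK4+, PDK4+ only, DLK2+ PDK4- and rest.

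Cells with DLK2 and without PDK4 had a CCN1 level of 1.202, 0.731 and 0.378, and the PDK4+ only cells had 1.28, 0.775 and 0.483. Those neighbouring states lay much closer to each other than either lay between cows. Adding PDK4 to DLK2 came with a log2 difference of 0.64 ± 0.12 (edgeR, adjusted p = 0.00143), and DLK2 without PDK4 stood 0.53 ± 0.12 above the rest (edgeR, adjusted p = 0.00384). At the other end, GJA1+ cells had 0.316, 0.325 and 0.0757, lower than the rest in all 3 cows by a log2 difference of -1.06 ± 0.15 (edgeR, adjusted p = 1.22e-06). With each cell thinned to 3000 UMIs, 30.8% ± 5.76 (SD, n = 3) of DLK2+ PDK4+ cells and 6.62% ± 3.17 of GJA1+ cells had a CCN1 UMI. The unthinned shares were 45.5% and 17.7%. No epithelial state lacked the gene, so no state could serve as a measure of free RNA in the droplets.

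THBS1 encodes thrombospondin 1, a large adhesive glycoprotein of the matrix that also activates latent TGF-beta. It spanned a wider range of states than CCN1. Its level in DLK2+ PDK4+ cells was 1.72, 0.825 and 0.273, against 0.192, 0.109 and 0.0239 in KRT15-high cells. The KRT15-high values all lay under the DLK2+ PDK4+ values, and the ratio within a cow was 8.98, 7.59 and 11.4 (log2 fold change 2.98 ± 0.18, edgeR, adjusted p = 2.155e-13). The 7 states stood in 1 and the same order in all 3 cows, from DLK2+ PDK4+ through PDK4+ only, DLK2+ PDK4-, DLK2+ GJA1+, rest and KRT15-high to GJA1+.

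THBS1 was called in each of the 6 comparisons, and it was the only 1 of the 9 tested genes of which that held. Its log2 difference was 0.88 ± 0.12 for PDK4 within DLK2+ cells (edgeR, adjusted p = 3.92e-05) and 1.24 ± 0.13 for PDK4+ only cells against the rest (edgeR, adjusted p = 2.64e-07). DLK2+ PDK4- cells stood 0.95 ± 0.13 above the rest (edgeR, adjusted p = 9.14e-06). On the low side, KRT15-high cells stood at -1.15 ± 0.20 (edgeR, adjusted p = 2.24e-04) and GJA1+ cells at -1.69 ± 0.18 (edgeR, adjusted p = 2.12e-08) against the rest. In the rest itself the level was 0.603, 0.224 and 0.0467. The KRT15-high call was lost with the cut at the 90th percentile (-0.68 ± 0.26, edgeR, adjusted p = 0.147).

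CCN2, formerly called connective tissue growth factor, is the close relative of CCN1 and an equally common readout of TEAD activity. It was rarer than CCN1, and scarcest in cow 3. Its level in DLK2+ PDK4+ cells was 0.353, 0.196 and 0.0288, the last from 15 UMIs. KRT15-high cells had 0.0499, 0.0483 and 0.00597, so that in each cow the DLK2+ PDK4+ value was the higher (ratios 7.07, 4.07 and 4.83) while the ranges of the states overlapped between cows. The fit gave 2.15 ± 0.25 on the log2 scale (edgeR, adjusted p = 7.58e-08).

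PDK4 went with higher CCN2 among DLK2+ cells by 1.13 ± 0.17 on the log2 scale (edgeR, adjusted p = 8.13e-05). In PDK4+ only cells CCN2 was higher than in the rest by 0.69 ± 0.18 (edgeR, adjusted p = 0.00977). The second of these calls was lost without cow 2 (0.66 ± 0.23, edgeR, adjusted p = 0.111). DLK2+ PDK4- cells had 0.129, 0.102 and 0.0104, and did not pass the test against the rest, at 0.127, 0.0824 and 0.00703 (log2 difference 0.26 ± 0.20, edgeR, adjusted p = 0.438). In GJA1+ cells CCN2 was at 0.0177, 0.0367 and 0.00115, where the last value is a single UMI, and lower than in the rest by a log2 difference of -1.77 ± 0.27 (edgeR, adjusted p = 6.96e-06).

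CRIM1 encodes a membrane protein that binds bone morphogenetic proteins and holds them at the cell surface. Its states differed less than those of the secreted targets. The level in DLK2+ PDK4+ cells was 0.812, 0.581 and 0.406, in KRT15-high cells 0.472, 0.420 and 0.261, and in GJA1+ cells 0.340, 0.239 and 0.172. DLK2+ PDK4+ was the highest and GJA1+ the lowest state in all 3 cows. The fit gave 0.51 ± 0.08 on the log2 scale between the first pair of states (edgeR, adjusted p = 9.28e-06) and -0.57 ± 0.08 for GJA1+ cells against the rest (edgeR, adjusted p = 9.66e-07). The differences of 0.27 to 0.28 for PDK4 with DLK2, for PDK4 without DLK2 and for DLK2 alone lay just past the fold limit of 0.25, and all 3 calls were lost without cow 1 (edgeR, adjusted p from 0.064 to 0.114). Without cow 2 the PDK4 calls were lost (edgeR, adjusted p = 0.278 with DLK2 and 0.0795 without it).

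AMOTL2 and AJUBA are targets whose proteins act back on the pathway. AMOTL2 is an angiomotin that binds YAP1 in the cytoplasm and at junctions, and AJUBA is a LIM protein that binds LATS kinases. AMOTL2 was at 0.168, 0.126 and 0.0865 in DLK2+ PDK4+ cells and at 0.0806, 0.0825 and 0.0484 in KRT15-high cells, with no overlap of the states (log2 fold change 0.67 ± 0.14, edgeR, adjusted p = 4.55e-04). It was higher with PDK4 by 0.58 ± 0.12 within DLK2+ cells (edgeR, adjusted p = 0.00235). In PDK4+ only cells it was higher than in the rest by 0.64 ± 0.11 (edgeR, adjusted p = 2.14e-04). The call within DLK2+ cells was lost without cow 2 (0.53 ± 0.17, edgeR, adjusted p = 0.155). For DLK2 without PDK4 the value was 0.15 ± 0.12 (edgeR, adjusted p = 0.502). GJA1+ cells, at 0.0895, 0.0645 and 0.0390, differed from the rest by -0.10 ± 0.13 (edgeR, adjusted p = 0.589). The GJA1+ state was not split by PDK4 and held PDK4 at 0.344, 0.599 and 0.103, where the rest has none by its definition. Whether the PDK4 difference of AMOTL2 exceeds its DLK2 difference was not tested.

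AJUBA passed no test for PDK4. Its level was 0.120, 0.0955 and 0.0519 in DLK2+ PDK4+ cells and 0.113, 0.0858 and 0.0792 in DLK2+ PDK4- cells (log2 difference 0.03 ± 0.17, edgeR, adjusted p = 0.972). DLK2+ PDK4- cells lay above the rest (0.0635, 0.0612 and 0.0640) in all 3 cows without overlap, and the difference of 0.48 ± 0.17 just missed the threshold (edgeR, adjusted p = 0.0563). GJA1+ cells had 0.0464, 0.0278 and 0.0356, all under the lowest value of the rest (-0.73 ± 0.22, edgeR, adjusted p = 0.00911). That call was lost without cow 2 (-0.58 ± 0.24, edgeR, adjusted p = 0.0692) and in cells thinned to 3000 UMIs, where the difference was 0.02 ± 0.35.

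YAP1, the main co-activator, passed none of the 6 tests. It was at 0.128, 0.0739 and 0.0442 in DLK2+ PDK4+ cells, at 0.0959, 0.0684 and 0.0644 in KRT15-high cells and at 0.0796, 0.0534 and 0.0356 in GJA1+ cells. The states overlapped, and in cow 3 the DLK2+ PDK4+ value was lower than the KRT15-high one. Its log2 fold change between them was -0.09 ± 0.16 (edgeR, adjusted p = 0.73), and within DLK2+ cells it was 0.00 ± 0.14 with against without PDK4. The largest YAP1 value was 0.40 ± 0.16 in KRT15-high cells against the rest (edgeR, adjusted p = 0.136), the opposite direction to THBS1. The next was 0.31 ± 0.14 in DLK2+ PDK4- cells against the rest (edgeR, adjusted p = 0.146), the same direction as THBS1.

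WWTR1 was called in DLK2+ PDK4+ against KRT15-high cells, at 0.0487, 0.0216 and 0.0384 against 0.0153, 0.0121 and 0.0199 (log2 fold change 0.88 ± 0.26, edgeR, adjusted p = 0.011). It was higher in all 3 cows, from 117 UMIs in the first state and 40 in the second. The call was lost without cow 1 (0.71 ± 0.32, edgeR, adjusted p = 0.12) and without cow 3 (1.02 ± 0.44, edgeR, adjusted p = 0.101). It was lost in 7 of 13 alternatives in all, among them at least 2 UMIs to set a state (0.37 ± 0.34, edgeR, adjusted p = 0.473), the 90th KRT15 percentile and the cells below and above the immediate-early median. TEAD1 had 0.0457, 0.0196 and 0.0288 in DLK2+ PDK4+ cells and 0.0537, 0.0121 and 0.0305 in KRT15-high cells, a log2 difference of -0.10 ± 0.26 (edgeR, adjusted p = 0.832). LATS2 had from 4 to 28 UMIs in the 7 states, and its highest mean level, 0.00868 ± 0.0042 (SD, n = 3), was in DLK2+ PDK4+ cells. At 0 LATS2 UMIs in the rest of cow 1 and in the GJA1+ cells of cow 2, no fold was taken.

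Whether PDK4 went with a different change in DLK2+ cells than in cells without DLK2 was tested as an interaction. Since cells without a DLK2 UMI can include some that express it, the test divides cells by detection of DLK2 and not by expression. Its reference without DLK2 was the rest, which leaves out KRT15-high cells. The other states in it were not cut by KRT15. In cows 1, 2 and 3 KRT15 was at 47.54, 59.55 and 49.74 in PDK4+ only cells. In the rest it was at 37.28, 44.13 and 41.94. The part of KRT15 in the interaction values was not tested. By edgeR 0 of the 9 genes were called, 0 reached an unadjusted p under 0.05, and DESeq2 called 0. Over all genes 0% were called higher and 0.00916% lower. The nearest were THBS1, whose PDK4 difference was smaller with DLK2 (-0.36 ± 0.18 on the log2 scale), and CCN2, whose difference was larger with DLK2 (0.44 ± 0.25). CCN1 stood at -0.06 ± 0.17 and AMOTL2 at -0.07 ± 0.16.

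The number of PDK4 UMIs in a cell gave a finer view of the same cells. Among DLK2+ cells without GJA1, 3593 had 0 PDK4 UMIs, 1218 had 1, 916 had 2 to 3 and 1669 had 4 or more, at median depths of 9784, 9997, 9468 and 9748 UMIs. Mean CCN1 over the 3 cows was 0.770 ± 0.413 (SD), 0.994 ± 0.492, 1.32 ± 0.668 and 1.36 ± 0.735 along these steps. It was higher after each of the first 2 steps in every cow, and between the last 2 groups it was lower in cow 3. Mean THBS1 was 0.515 ± 0.431, 0.613 ± 0.449, 1.05 ± 0.977 and 1.22 ± 0.694. Between the last 2 groups it was lower in cow 1, at 2.15 and then 1.99.

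AMOTL2 was at 0.0837 ± 0.0316 with 0 PDK4 UMIs and at 0.0824 ± 0.0300 with 1, and then at 0.118 ± 0.0384 and 0.191 ± 0.0235 in the upper groups. With 4 or more PDK4 UMIs the cows, at 0.216, 0.170 and 0.187, all lay above every cow with 0 or 1. That group held 267, 1324 and 78 cells of cows 1, 2 and 3. This course was not shared by cells without DLK2 or seen after thinning. Without DLK2 the means were 0.0713, 0.103, 0.123 and 0.119, higher after the first step in all 3 cows and in cow 3 not highest in the last group. In DLK2+ cells thinned to 3000 UMIs they were 0.111, 0.128, 0.224 and 0.159, with 14 cells of cow 3 in the last group. YAP1 in the unthinned DLK2+ cells had 0.0810 ± 0.0257, 0.0852 ± 0.0393, 0.0685 ± 0.0319 and 0.0788 ± 0.0663, with no order shared by the cows. These steps hold the same cells as the PDK4 comparison, and no test was run on them.

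**Figure D3:**
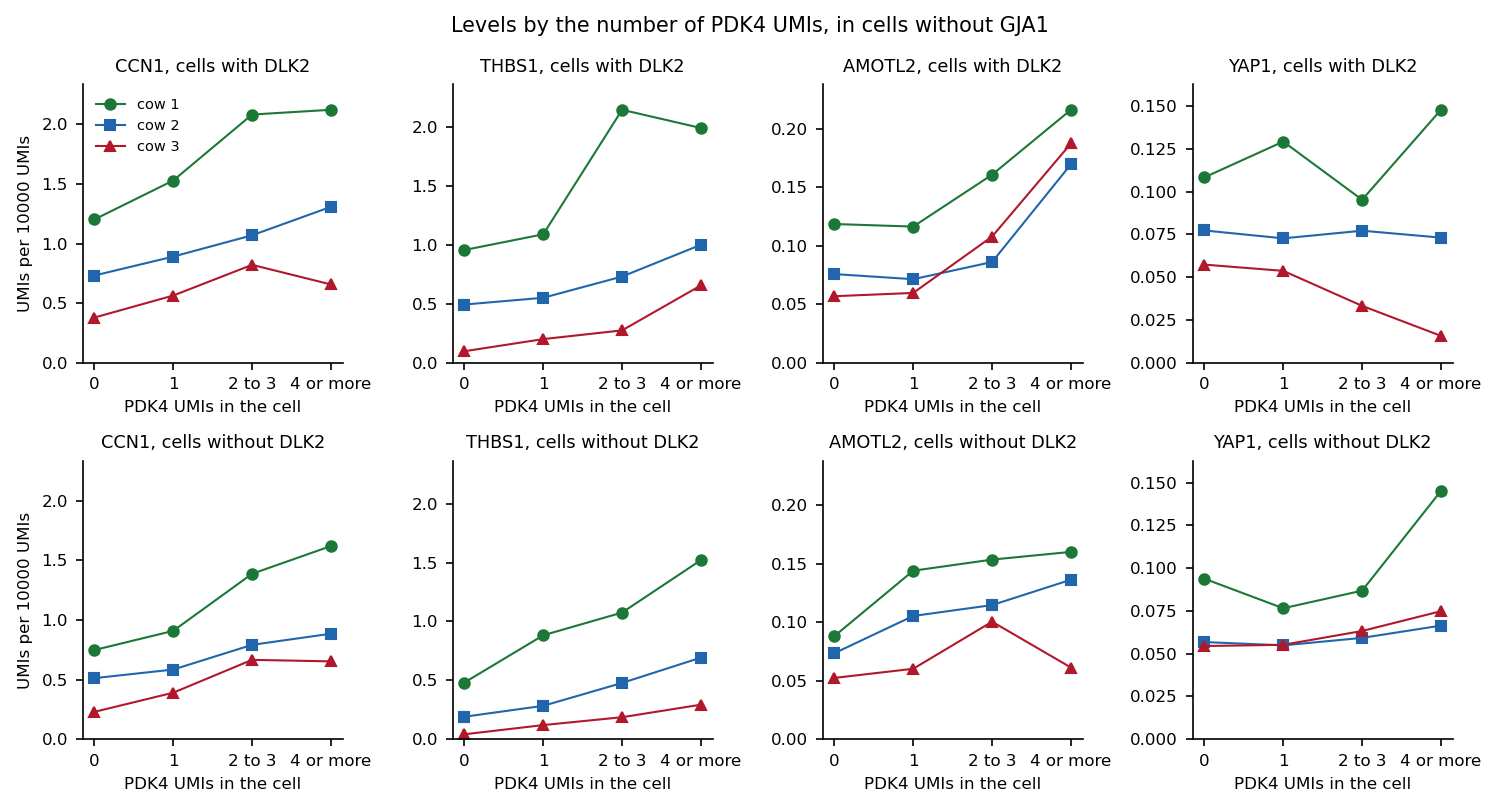
Levels of CCN1, THBS1, AMOTL2 and YAP1 (y axis, UMIs per 10000 UMIs, with 1 scale per gene) by the number of PDK4 UMIs in the cell (x axis), in cells with DLK2 (upper row) and without DLK2 (lower row), all without GJA1. Each line is 1 cow. CCN1 and THBS1 are higher with 4 or more PDK4 UMIs than with 0 in every cow of both rows, and AMOTL2 with DLK2 is highest in the last group in all 3 cows.

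Other genes of the pathway were taken from 2 lists, which were set up with earlier results of these data known. Of 11 tested genes on a list of further YAP and TEAD targets, 6 were higher and 2 lower in DLK2+ PDK4+ than in KRT15-high cells, with a median log2 fold change of 0.49 beside 0.006 over all genes. There 12.4% of all genes were called higher and 14% lower. ARHGEF17, an activator of RhoA, had 1.52 ± 0.42 (edgeR, adjusted p = 0.00677) and GADD45A, a growth-arrest gene that many stresses induce, had 1.24 ± 0.15 (edgeR, adjusted p = 1.46e-07). The lower pair were IGFBP3, a binding protein of insulin-like growth factors, at -1.29 ± 0.31 (edgeR, adjusted p = 0.00191), and NT5E, the ecto-nucleotidase CD73, at -0.66 ± 0.07 (edgeR, adjusted p = 4.94e-08). In the PDK4 comparison within DLK2+ cells only 1 of the 11 was higher, GADD45A, and 1 lower, IGFBP3 (2.49% and 2.47% of all genes). In GJA1+ cells against the rest 3 were higher and 6 lower, beside 17.3% higher and 16.3% lower over all genes.

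IGFBP3 went opposite to CCN1 in some comparisons and along with it in another. Its level was 0.166, 0.195 and 0.0573 in DLK2+ PDK4- cells and 0.0369, 0.0648 and 0.0231 in DLK2+ PDK4+ cells. It was lower with PDK4 in each cow (log2 difference -1.61 ± 0.25, edgeR, adjusted p = 1.68e-04). In GJA1+ cells, where CCN1, CCN2 and THBS1 were low, IGFBP3 stood 2.14 ± 0.28 above the rest (edgeR, adjusted p = 5.42e-07). NT5E did likewise, at 0.97 ± 0.07 (edgeR, adjusted p = 8.07e-12). In DLK2+ PDK4- cells, by contrast, IGFBP3 was above the rest as CCN1 and THBS1 were (2.11 ± 0.27, edgeR, adjusted p = 2.12e-06), and in PDK4+ only cells it had 0.55 ± 0.32 (edgeR, adjusted p = 0.269).

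Of 23 tested genes that encode the kinases, scaffolds, adaptors and other TEAD factors of the Hippo pathway, 6 were higher and 0 lower in DLK2+ PDK4+ than in KRT15-high cells. Their median was 0.05 on the log2 scale, close to that of all genes. Of all genes 12.4% were called higher and 14% lower in that comparison. WTIP, a relative of AJUBA, had the largest value, 3.00 ± 0.52 (edgeR, adjusted p = 4.59e-05), from 88 UMIs in the first state and 5 in the second. FAT1, a giant cadherin, was at 0.76 ± 0.17 (edgeR, adjusted p = 0.00121), the kinase TAOK3 at 0.68 ± 0.12 (edgeR, adjusted p = 7.91e-05) and STK3, the kinase MST2 that activates LATS kinases, at 0.57 ± 0.14 (edgeR, adjusted p = 0.00234). In GJA1+ cells 0 of the 23 were higher and 7 lower than in the rest, beside 17.3% higher and 16.3% lower over all genes. DCHS1, the cadherin partner of FAT4, had 0 UMIs in the 20728 cells. NUAK2 of the target list and VGLL1 of the Hippo list were not analysed here.

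Immediate-early and stress genes, which dissociation of tissue is known to induce, moved with several of the same states. Of 21 tested, 17 were higher and 1 lower in DLK2+ PDK4+ than in KRT15-high cells (12.4% and 14% of all genes), with a median of 0.92 on the log2 scale. FOS was at 1.50 ± 0.17, JUN at 1.13 ± 0.12, EGR1 at 1.50 ± 0.15 and ATF3 at 1.51 ± 0.25 (edgeR, adjusted p from 1.08e-08 to 2.17e-05). The list also had 16 genes higher with PDK4 within DLK2+ cells (2.49% of all genes). In PDK4+ only cells 17 were higher and 1 lower than in the rest (5.92% and 6.68% of all genes). For DLK2+ PDK4- cells against the rest 5 were higher and 1 lower (5.04% and 7.46% of all genes). For KRT15-high cells the counts were 0 and 1 (2.98% and 4.29%), and for GJA1+ cells 3 and 9 (17.3% and 16.3%). The summed level of the list was 153, 158 and 61.3 in DLK2+ PDK4+ cells, 125, 152 and 62.6 in PDK4+ only cells, 58.3, 103 and 38.5 in KRT15-high cells and 65.1, 95.4 and 40.9 in GJA1+ cells.

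The comparisons were therefore repeated among the cells below and above their cow's median for the share of UMIs in this list. The second of these was added after the data were seen. Below the median, DLK2+ PDK4+ cells numbered 146, 945 and 167 in the 3 cows. There, 3 of 9 genes were higher than in KRT15-high cells, where 6.44% of all genes were called higher: THBS1 by 2.70 ± 0.22 (edgeR, adjusted p = 4.14e-11), CCN1 by 1.34 ± 0.19 (edgeR, adjusted p = 3.02e-06) and CCN2 by 1.27 ± 0.45 (edgeR, adjusted p = 0.0495). Above the median, 4 of 9 were higher (6.43% of all genes), namely these 3 and CRIM1 at 0.57 ± 0.11 (edgeR, adjusted p = 3.79e-04). The differences of the 3 were smaller than in all cells both below and above the median. Above it they were 0.88 ± 0.15 against 1.54 for CCN1, 1.52 ± 0.33 against 2.15 for CCN2 and 2.15 ± 0.29 against 2.98 for THBS1. The difference from KRT15-high cells in CCN1, CCN2 and THBS1 was called at either level of the list, whereas AMOTL2 was called at neither (0.46 ± 0.25 and 0.23 ± 0.23). The split does not match the states for their level of the list, and the part of the list in these differences was not tested. In GJA1+ cells against the rest CCN2 was not called below the median (-0.61 ± 0.44, edgeR, adjusted p = 0.306).

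The PDK4 comparisons had fewer calls, among all genes as well. Within DLK2+ cells the share of all genes called higher went from 2.49% to 0.0827% below the median and 0.206% above it. Of the 9 genes only THBS1 was called below the median (0.83 ± 0.15, edgeR, adjusted p = 0.00985), and 0 of the 9 genes by edgeR above it. There 4 reached an unadjusted p under 0.05 by edgeR: CCN2 (0.0021), AMOTL2 (0.00612), CRIM1 (0.0161) and WWTR1 (0.0413). The share of all genes at that unadjusted limit was not counted in this subset. The log2 fold changes of CCN1, AMOTL2, CCN2 and THBS1 were also smaller: CCN1 went from 0.64 in all cells to 0.46 ± 0.16 below and 0.25 ± 0.13 above the median, AMOTL2 from 0.58 to 0.12 ± 0.22 and 0.53 ± 0.18, CCN2 from 1.13 to 0.83 ± 0.34 and 0.65 ± 0.19, and THBS1 from 0.88 to 0.83 ± 0.15 and 0.37 ± 0.19. For PDK4+ only cells against the rest, with 0.806% of all genes called higher below the median and 2.96% above it, THBS1 alone was called below the median (0.80 ± 0.17, edgeR, adjusted p = 0.0115) and above it (0.77 ± 0.20, edgeR, adjusted p = 0.0124). CCN1 in that comparison went from 0.69 ± 0.12 in all cells to 0.44 ± 0.16 and 0.35 ± 0.13. CCN2 went from 0.69 ± 0.18 to 1.07 ± 0.35 below the median and -0.01 ± 0.22 above it. Each subset holds fewer cells, and the part of the list in the PDK4 differences was not tested.

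**Figure D4:**
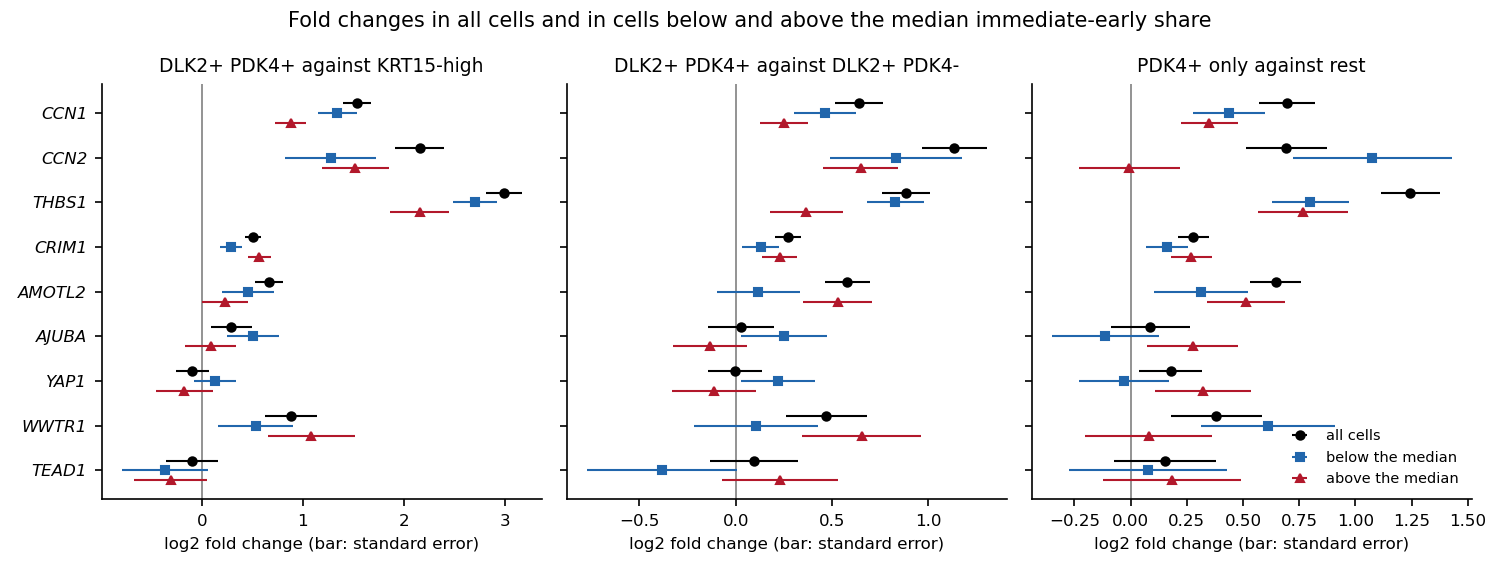
Log2 fold changes with standard errors (x axis, with a scale of its own in each panel) of the 9 tested genes (y axis) in 3 comparisons, in all cells (circles), in cells below their cow's median share of immediate-early and stress UMIs (squares) and in cells above it (triangles). THBS1, CCN1 and CCN2 stay to the right of 0 in the first panel under all 3 selections, and CCN2 in the third panel lies at 0 above the median.

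Signs of other cell types were few. The fibroblast list had 41 UMIs in all, with PDGFRB at 0 and 5 of 6 genes detected; the smooth muscle list had 260, the endothelial list 602 and the immune list 1196. Of the 4 lists only the immune list had a summed level in DLK2+ PDK4+ cells (0.0708, 0.0779 and 0.0711) that lay above that of KRT15-high cells (0.0230, 0.0261 and 0.0312) without overlap, with 819 of its UMIs from CD68 and 38 from PTPRC. It also lay above that of DLK2+ PDK4- cells (0.0389, 0.0492 and 0.0365) without overlap. CD68, a lysosomal protein abundant in macrophages, was called higher in DLK2+ PDK4+ than in KRT15-high cells (1.11 ± 0.30, edgeR, adjusted p = 0.00575), and within DLK2+ cells it was at 0.76 ± 0.24 (edgeR, adjusted p = 0.0638). In PDK4+ only cells the immune list (0.047, 0.072 and 0.063) lay above the rest (0.033, 0.063 and 0.037) in each cow. CD68 was at 0.57 ± 0.22 there (edgeR, adjusted p = 0.08). In GJA1+ cells the endothelial list (0.0431, 0.0345 and 0.0379) lay above the rest (0.0326, 0.0178 and 0.0237) without overlap, and VWF (0.83 ± 0.22, edgeR, adjusted p = 0.00394) and the immune marker CD3E (0.92 ± 0.36, edgeR, adjusted p = 0.047) were called higher there. VWF made up 563 of the 602 endothelial UMIs, and PECAM1 and CDH5 had 4 and 3. Leaving out the 1834 cells with any UMI of these lists gave the same counts of called genes in all 6 comparisons. The GJA1+ cells had a median of 15760 UMIs, against 9770 in DLK2+ PDK4+ cells, and 5.78% of them had under 2% mitochondrial UMIs. The counts were also the same without the 270 such cells of all states. On a list of 7 epithelial genes, 0 were higher and 6 lower in DLK2+ PDK4+ than in KRT15-high cells. KRT15, which set the states, was among the 6. Their list had a median of -0.49, and 14% of all genes were called lower.

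Within DLK2+ PDK4+ cells, CCN2 was higher in cells with CCN1 in cows 1 and 2. After thinning to 3000 UMIs, cells with a CCN1 UMI had 0.688, 0.600 and 0.0901 CCN2 UMIs per 10000 in the 3 cows, and cells without one had 0.276, 0.242 and 0.0309. The first value was the higher in cows 1 and 2, while in cow 3 each of the pair stands for 1 UMI and gives no direction. For THBS1 the cows differed: it was at 2.46, 1.45 and 0.450 in cells with CCN1 and at 2.57, 1.04 and 0.556 in cells without it, higher with CCN1 in cow 2 and lower in cows 1 and 3. Split the other way, CCN1 was at 2.97, 2.00 and 1.17 in cells with a THBS1 UMI and at 2.49, 1.46 and 1.36 in cells without one, higher in cows 1 and 2 and lower in cow 3. Cow 3 had 37 cells with CCN1 and 108 without, and 20 with THBS1 and 125 without. Its directions therefore rest on few UMIs.

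Across the 21 sums of 7 states and 3 cows, each centred on its cow, the log2 levels of CCN1 had a Pearson correlation of 0.956 with CCN2, 0.928 with CRIM1 and 0.869 with THBS1. YAP1 had 0.528 with CCN1, 0.568 with CRIM1 and 0.247 with THBS1. The target AJUBA had 0.421 with CCN1 and 0.555 with THBS1, and the co-activator WWTR1 had 0.631 and 0.547. These are descriptions of points that share cows and libraries, and the sparse genes carry more counting error. Outside the 10 genes and the 4 that set the states, the closest to CCN1 were TSC22D1 (0.977), GABARAPL1 (0.967) and SOX4 (0.965). The closest to THBS1 were CDKN1C (0.962), PRNP (0.958) and SPRY1 (0.951), and the closest to CCN2 were COX7A1 (0.959), ITPR2 (0.947) and ABHD4 (0.94). For the sparser YAP1 they were ELMSAN1 (0.842), RABEP1 (0.839) and FLOT2 (0.839), and for TEAD1 SDCCAG8 (0.83), PLA2R1 (0.821) and ZNF696 (0.812). None of these lists of 3 shared a gene with another, also not those of CCN1 and CCN2. The lists therefore draw no line between the targets and YAP1 or TEAD1.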

How the data were processed

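Single-cell libraries of the rumen epithelium of 3 cows were made by the authors with Chromium 3′ reagents. Per the study's methods and the submitters' processing notes, reads were aligned to the bovine Ensembl annotation and counted with Cell Ranger 3.1.0. Seurat was used to filter and cluster cells and DoubletFinder to find doublets, and non-epithelial cells were removed. The deposited matrix holds raw UMI counts per gene and cell; a second deposited table holds natural log values, ln(1 + UMIs per 10000), made by the authors from these counts. Its gene names were used to name the matrix rows: 990 of its rows were recomputed from the counts and agreed within 1e-06. Cells were assigned to cows by the ending of the barcode.

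Counts were summed per state and cow into 21 sums of 1195927 to 42653279 UMIs. edgeR 4.0.16 in R 4.3.3 (filterByExpr, TMM, glmQLFit, glmQLFTest) was fitted with state and cow, and DESeq2 1.42.0 was an alternative. Standard errors are the log2 fold change divided by the square root of F. The cow is a true block, since all states come from the same 3 animals. Deviations from each state's mean over the cows correlated at 0.42 to 0.854 for sums of the same cow. Those of different cows correlated at -0.497 to -0.151, where taking off that mean by itself draws the values negative. The fit was also run on simulated counts, and the outcome is not reported here. With the cow as a block, differences in level between cows are taken out. The p-values measure how far state differences vary over the 3 cows, with the spread estimated from all 7 states.

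The members and lists were chosen with earlier results of these data known. Named by rule were all 10 members, up to 4 genes of each pathway list with the largest called change in DLK2+ PDK4+ against KRT15-high cells, any listed gene at 0 UMIs, 4 immediate-early genes, and the 3 genes most like CCN1, CCN2, THBS1, YAP1 and TEAD1. PTPRC, CD68, CD3E, VWF, PECAM1 and CDH5 were named after their values were seen. Alternatives were DESeq2, no filter, no block, each cow left out, at least 2 UMIs to set a state, thinning, the 90th KRT15 percentile, mitochondrial genes or cells under 2% mitochondrial UMIs left out, cells with other-type UMIs left out, and the cells below or above the median of the immediate-early list.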

Additional observations from a re-analysis of the deposited data

How the results depend on the processing

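The calls rested on the cow as a replicate block: without it 0 members were called in all 6 comparisons, and over all genes 104 were higher and 187 lower, against 1356 and 1532, in DLK2+ PDK4+ against KRT15-high cells. Leaving out each cow gave 5 to 6, 3 to 5, 3 to 5, 2 to 4, 1 to 1 and 4 to 5 called members in the 6 comparisons in the order of the report. DESeq2, mitochondrial genes left out, cells under 2% mitochondrial UMIs left out and cells with other-type UMIs left out changed none of the 25 called member results. KRT15-high against rest moved from 1 called member to 3 without the filter on low counts, 2 with at least 2 UMIs to set a state, 2 after thinning, 0 with the 90th percentile and 0 above the immediate-early median. DLK2+ PDK4- against rest went from 3 to 5 with at least 2 UMIs. Below the immediate-early median the counts were 3 for DLK2+ PDK4+ against KRT15-high, 1 against DLK2+ PDK4- and 1 for PDK4+ only against rest; above it the last pair were 0 and 1. These subsets hold fewer cells. For the other changes the cause was not tested. Reversed in sign were AJUBA in GJA1+ cells after thinning (0.017) and CCN2 in PDK4+ only cells above the immediate-early median (-0.006).

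Over all genes, with the block, the called genes ranged from 1437 to 2899, 18 to 719, 155 to 1788, 698 to 1418, 362 to 908 and 2057 to 4471, against 2888, 542, 1375, 1364, 793 and 3668. The interaction had 0 called members throughout.

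Thinning, which also moves cells between states, shifted 23 of 70 mean levels by more than the SD between cows. They became, for DLK2+ PDK4+ cells, CRIM1 0.853 and AMOTL2 0.171; for DLK2+ PDK4- cells, CCN2 0.162, YAP1 0.114 and TEAD1 0.0412; for PDK4+ only cells, CCN1 1.33, CRIM1 0.649, AJUBA 0.0854 and WWTR1 0.0373; for KRT15-high cells, CCN2 0.0669, THBS1 0.254 and LATS2 0.00619; for the rest, AJUBA 0.0845; for GJA1+ cells, AJUBA 0.0759, WWTR1 0.00939 and LATS2 0.00346; and for the 59 remaining DLK2+ GJA1+ cells, THBS1 1.27, CRIM1 0.493, AMOTL2 0.151, TEAD1 0.0427, LATS2 0.0505, and AJUBA and WWTR1 0. Leaving out mitochondrial genes shifted 7: AJUBA 0.0774 in PDK4+ only cells and 0.0743 in the rest, YAP1 0.0942 in KRT15-high cells, WWTR1 0.0269 in DLK2+ PDK4-, 0.0319 in PDK4+ only and 0.02001 in KRT15-high cells, and LATS2 0.0015 in KRT15-high cells.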

Other observations

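Cells with both DLK2 and GJA1 entered no comparison. In these 438 cells THBS1 was at 0.689, 0.301 and 0.0585 UMIs per 10000 in cows 1, 2 and 3, above the GJA1+ cells without DLK2 (0.176, 0.0423 and 0.0161) in each cow. CCN1 was likewise at 0.751, 0.361 and 0.117 against 0.316, 0.325 and 0.0757. AMOTL2 was at 0.125, 0.0855 and 0.0669 against 0.0895, 0.0645 and 0.0390. CCN2 was at 0.0589 and 0.0285 in cows 1 and 2, from 16 and 9 UMIs, against 0.0177 and 0.0367, and in cow 3, with 0 UMIs against 1, it gave no direction. The immediate-early list, at 83.6, 102 and 41.8 against 65.1, 95.4 and 40.9, was also higher in each cow, as was PDK4, at 0.939, 1.65 and 0.259 against 0.344, 0.599 and 0.103. The part of either in these values was not tested. After thinning to 3000 UMIs, which left 59 cells with a UMI of both DLK2 and GJA1, CCN1 had 5, 2 and 0 UMIs in the 3 cows and THBS1 had 25, 4 and 0, too few in cow 3 to give a direction for either gene, and in cow 2 for CCN1.

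The proliferation list of MKI67, TOP2A, CCNB1, PCNA and RRM2 did not go with the targets. Its summed level was highest in the rest (3.84, 1.61 and 5.04) and low both in DLK2+ PDK4+ cells (0.798, 0.608 and 2.59), where CCN1 was highest, and in KRT15-high cells (0.767, 0.654 and 1.65), where it was low. By edgeR, 0 of its 5 genes were called between DLK2+ PDK4+ and KRT15-high cells. All 5 were lower than in the rest in KRT15-high cells (4.29% of all genes lower) and in DLK2+ PDK4- cells (7.46%). In PDK4+ only cells 4 were lower than in the rest (6.68% of all genes), and in GJA1+ cells 2 (16.3%).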
